A study of Mus musculus with 17 samples.

Results

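Interferon-stimulated genes are the genes that a cell switches on when interferon reaches it. A list of 37 genes of this response was followed across sorted mouse hematopoietic stem cells (HSCs). Besides such genes it holds parts of the response itself, among them the receptor genes Ifnar1 and Ifnar2 and the transcription factor gene Irf3. The genes were named by symbol, in a list chosen with earlier results of these data known. Within that list, measured values served to pick the probe set. Each gene was read from the probe set annotated to it alone, and where several existed the one with the highest mean over all arrays was used. This gave values for 35 of the 37 genes, all of them above the lower limit of the scale on at least 1 array, out of 16784 such genes in all. Isg15, a ubiquitin-like modifier, had only a probe set shared with another gene, and no probe set was listed for Ifi44.

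The study, which by its title is about C/EBPa, a transcription factor, and the quiescence of adult HSCs, hybridised 17 arrays in 5 groups. Control and C/EBPa KO HSCs were sorted from adult mice at day 7 (n = 3 each) and at day 21 (n = 4 each) after injection of pIpC, a synthetic double-stranded RNA. Fetal liver HSCs at E15.5 (n = 3) had no pIpC injection in their labels. Adult cells were sorted as lin-, sca1+, ckit+, CD150+ and CD48-, and fetal cells by the same gate with low Mac-1. Controls are labelled wild type and carry the pIpC injection as the KO mice do, so no adult group without pIpC entered any comparison and the response to pIpC itself was not measured. The titles name a C/EBPa KO, whereas the genotype field of the same arrays names a Pu.1 knock-in (PU.1ki/ki). The strain, the age of the adult mice, the Cre line and whether a replicate was 1 mouse or a pool are not stated in the labels, and p-values therefore measure only the spread between these samples.

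Type I interferon binds a receptor of the chains IFNAR1 and IFNAR2 and signals through the kinases JAK1 and TYK2. The complex ISGF3, which holds STAT2 and IRF9, then binds the interferon-stimulated response element (ISRE) in the promoters of its target genes, and a second element of such promoters is the gamma-activated site (GAS). Double-stranded RNA such as pIpC is sensed by TLR3 and MDA5 and elicits interferon, and interferon is known to bring dormant HSCs into cycle. For this reason pIpC is widely used both to switch on an interferon-inducible Cre and to disturb HSC quiescence.

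Promoters of members are shown because these response elements are what such genes commonly share. In RefSeq promoters of GRCm38.p6, from 250 bases before to 50 bases after each start, an entry existed for 29 of the 35 measured genes. The ISRE core, GAAA followed by any 2 bases and GAAA and searched on both strands, was present for 15 of the 29 genes (51.7%), against 3.99% of all 27025 genes in that table. The GAS core TTCNNNGAA, which reads the same on both strands, was present for 12 of the 29 genes (41.4%), against 9.55% of all genes. Capitals mark these matches in 4 promoters, printed 5′ to 3′ on the gene's own strand, and a match describes letters only, not a bound site. Irf1 (chr11:53769764-53770063, + strand) is shown as the gene that passed the test below, and its second listed start had no match. Ifit1 (chr19:34640639-34640938, + strand) and Ifitm3 (chr7:141010695-141010994, - strand) are shown as genes with paired ISRE cores, and Ifnar2 (chr16:91372533-91372832, + strand) as a receptor chain. In Ifitm3 the GAS core overlaps the second ISRE core.
Irf1: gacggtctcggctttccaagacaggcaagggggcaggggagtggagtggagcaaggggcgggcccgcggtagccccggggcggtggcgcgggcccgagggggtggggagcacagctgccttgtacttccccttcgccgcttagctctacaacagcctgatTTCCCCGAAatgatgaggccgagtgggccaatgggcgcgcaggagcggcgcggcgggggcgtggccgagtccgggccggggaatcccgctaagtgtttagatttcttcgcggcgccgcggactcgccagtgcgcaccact
Ifit1: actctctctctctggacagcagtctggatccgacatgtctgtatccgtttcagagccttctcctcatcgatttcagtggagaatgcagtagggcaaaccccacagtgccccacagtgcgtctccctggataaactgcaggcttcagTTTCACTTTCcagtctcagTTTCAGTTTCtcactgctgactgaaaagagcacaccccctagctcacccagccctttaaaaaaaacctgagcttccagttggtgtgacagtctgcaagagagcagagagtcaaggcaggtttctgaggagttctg
Ifitm3: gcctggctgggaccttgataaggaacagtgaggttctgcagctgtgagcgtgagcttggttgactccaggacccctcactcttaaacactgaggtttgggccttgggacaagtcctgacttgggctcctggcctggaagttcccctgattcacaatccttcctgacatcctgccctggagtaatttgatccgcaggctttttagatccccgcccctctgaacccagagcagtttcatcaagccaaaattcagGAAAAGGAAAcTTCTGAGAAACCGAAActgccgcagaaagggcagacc
Ifnar2: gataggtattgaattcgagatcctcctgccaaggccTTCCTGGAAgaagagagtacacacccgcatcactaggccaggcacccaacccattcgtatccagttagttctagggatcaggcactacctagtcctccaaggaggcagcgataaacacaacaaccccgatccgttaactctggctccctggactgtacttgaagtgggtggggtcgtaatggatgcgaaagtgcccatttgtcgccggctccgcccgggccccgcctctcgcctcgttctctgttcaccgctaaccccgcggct

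Cebpa, the gene for C/EBPa, checked the labels first. Control arrays stood at 136, 141 and 315 at day 7 and at 275, 115, 115 and 532 at day 21. KO arrays stood at 32, 31 and 20.7 at day 7 and at 26.7, 29.9, 25 and 39.8 at day 21, below every control array. Over both days this fall was past the threshold (limma adjusted p = 0.0426), at each day alone it was not (adjusted p = 0.316 at day 7 and 0.0536 at day 21), and Spi1, the gene for PU.1, overlapped between the groups. All values are deposited intensities on a linear scale with a floor of 16, at which 20.4% to 25.2% of probe sets lay on each array. Median intensity per array ran from 39.4 to 53.1, no arrays were identical, and differences are log2 differences from 1 limma model over all 17 arrays with a Benjamini-Hochberg adjusted p under 0.05 as threshold. The HSC genes Slamf1, Kit, Procr, Mecom, Hlf and Meis1 were above the floor on all arrays, whereas Itgam, the gene for Mac-1, was at the floor on 14 of them and Cd3e on 12. Cd48, the gene for the marker that the sort excludes, was at the floor on 2 arrays, stood at 16 to 18.8 in control and 60.9 to 283 in KO at day 7, reached 658 in control and 308 in KO at day 21, and was 99.5 to 210 in fetal liver. In bulk samples a smaller share of cells of a type and less RNA per cell cannot be told apart.

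Of the 35 genes, 1 passed the threshold in any comparison, namely Irf1, an activating transcription factor of the interferon response. Its intensity was 128, 290 and 261 in fetal liver. Controls stood at 1159, 1011 and 871 at day 7 and at 1181, 1151, 833 and 994 at day 21. KO arrays stood at 1554, 975 and 1007 at day 7 and at 1170, 650, 1146 and 1225 at day 21. Every fetal array lay below every adult array, and the 4 adult groups overlapped each other. By the labels, fetal and adult control groups differ in stage, pIpC injection and sort gate together, so these cannot be told apart in any fetal comparison. Against adult control, Irf1 was lower in fetal liver by a log2 difference of −2.26 (SE 0.27, 95% confidence interval −2.84 to −1.67, limma adjusted p = 0.000273), which is 4.77-fold. KO minus control gave 0.19 at day 7 (SE 0.32, adjusted p = 0.984), and at day 21 the value was −0.02 (SE 0.28, adjusted p = 1).

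**Figure D1:**
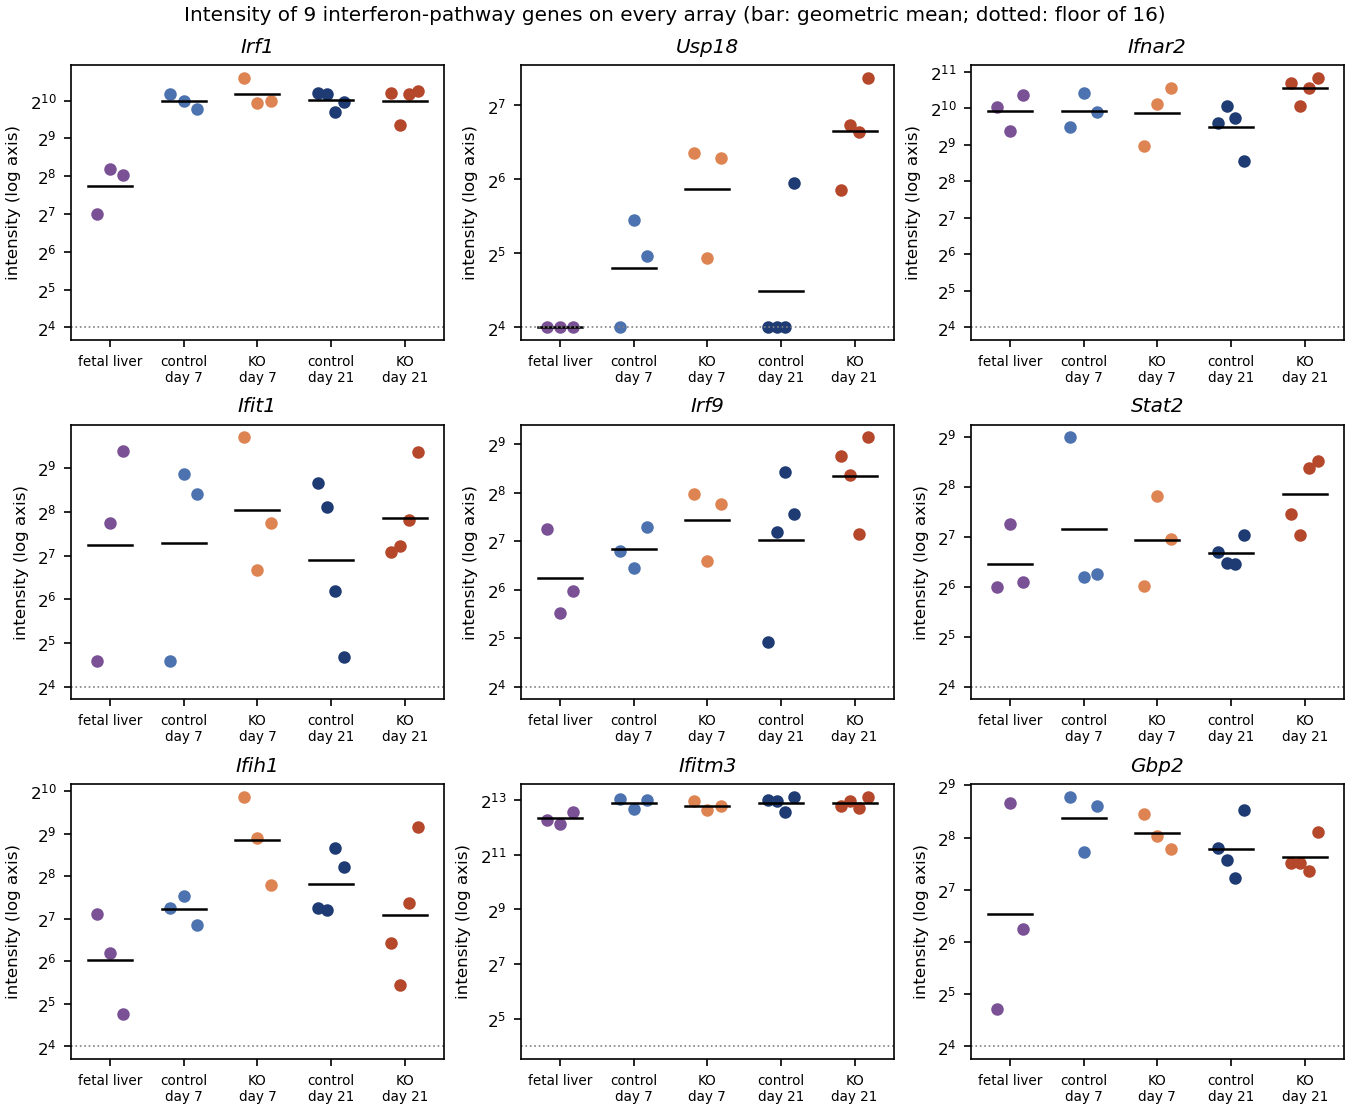
Intensity of 9 members on each array, by group, on a log axis with the floor of 16 dotted and the geometric mean of each group as a bar. Irf1 is low on the 3 fetal arrays alone, Usp18 lies at the floor on all 3 of them, and the groups of most other genes overlap.

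The fetal comparison was the one with many called genes, 613 of the 16784 tested (3.65%), and 1.77% of the tested genes were called lower in fetal liver. Of the 35 members, 22 had a lower mean and 13 a higher mean in fetal liver than in adult control, with a median log2 difference of −0.29, while 52% of all genes had a higher mean and their median was 0.02. Of the members 1 passed the test, and 4 had an unadjusted p under 0.05, all lower, against 6.77% of all genes. The members' 1 gene whose groups did not overlap was Irf1, where 2.68% of all genes were lower in fetal liver without overlap. Fetal arrays also carried signal of other cell types: the summed level of 6 neutrophil genes was 3839 to 31385 in fetal liver and 183 to 3863 over the adult arrays, and that of 4 hepatocyte genes was 603 to 9033 and 201 to 931. Of the 7 macrophage genes measured, summing to 2797 to 6769 in fetal liver and 1169 to 1992 in adults, C1qb stood at 936 to 1382 on fetal arrays and Ccr2 was at the floor on all of them. Erythroid and endothelial sums were 1939 to 3700 and 1155 to 10485 in fetal liver, and 205 to 5230 and 215 to 626 over the adult arrays; the part of these cells in these differences was not tested.

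The next smallest p-values of the fetal comparison belonged to Ifitm3, Gbp2 and Ifitm1. Ifitm3, which encodes a membrane protein that hinders viral entry, had 4941, 4470 and 6050 in fetal liver, against 6465 to 8269 in control at day 7 and 5962 to 8736 at day 21. Its groups overlapped by 1 control array, and the log2 difference was −0.57 (SE 0.16, limma adjusted p = 0.059). The related Ifitm1 had 4500, 3010 and 4269 in fetal liver and 3309 to 6096 in adult control, with a difference of −0.46 (SE 0.19, adjusted p = 0.238). Gbp2, a GTPase that coats vacuoles of intracellular pathogens, spread widely in fetal liver, from 26.3 and 76.4 to 405, and its difference was −1.54 (SE 0.60, adjusted p = 0.198). Its second probe set gave −0.91, and without fetal replicate 1 the difference was −0.62 (adjusted p = 0.669). Bst2, the gene for the membrane protein tetherin, differed the other way, with 277, 618 and 836 in fetal liver, 251 to 311 in control at day 7 and 245 to 643 at day 21, and a difference of 0.80 (SE 0.38, adjusted p = 0.314). None of these 4 passed the threshold under the main model, and Ifitm3, Gbp2 and Ifitm1 each passed it under at least 1 of the settings given in the closing section.

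**Figure D2:**
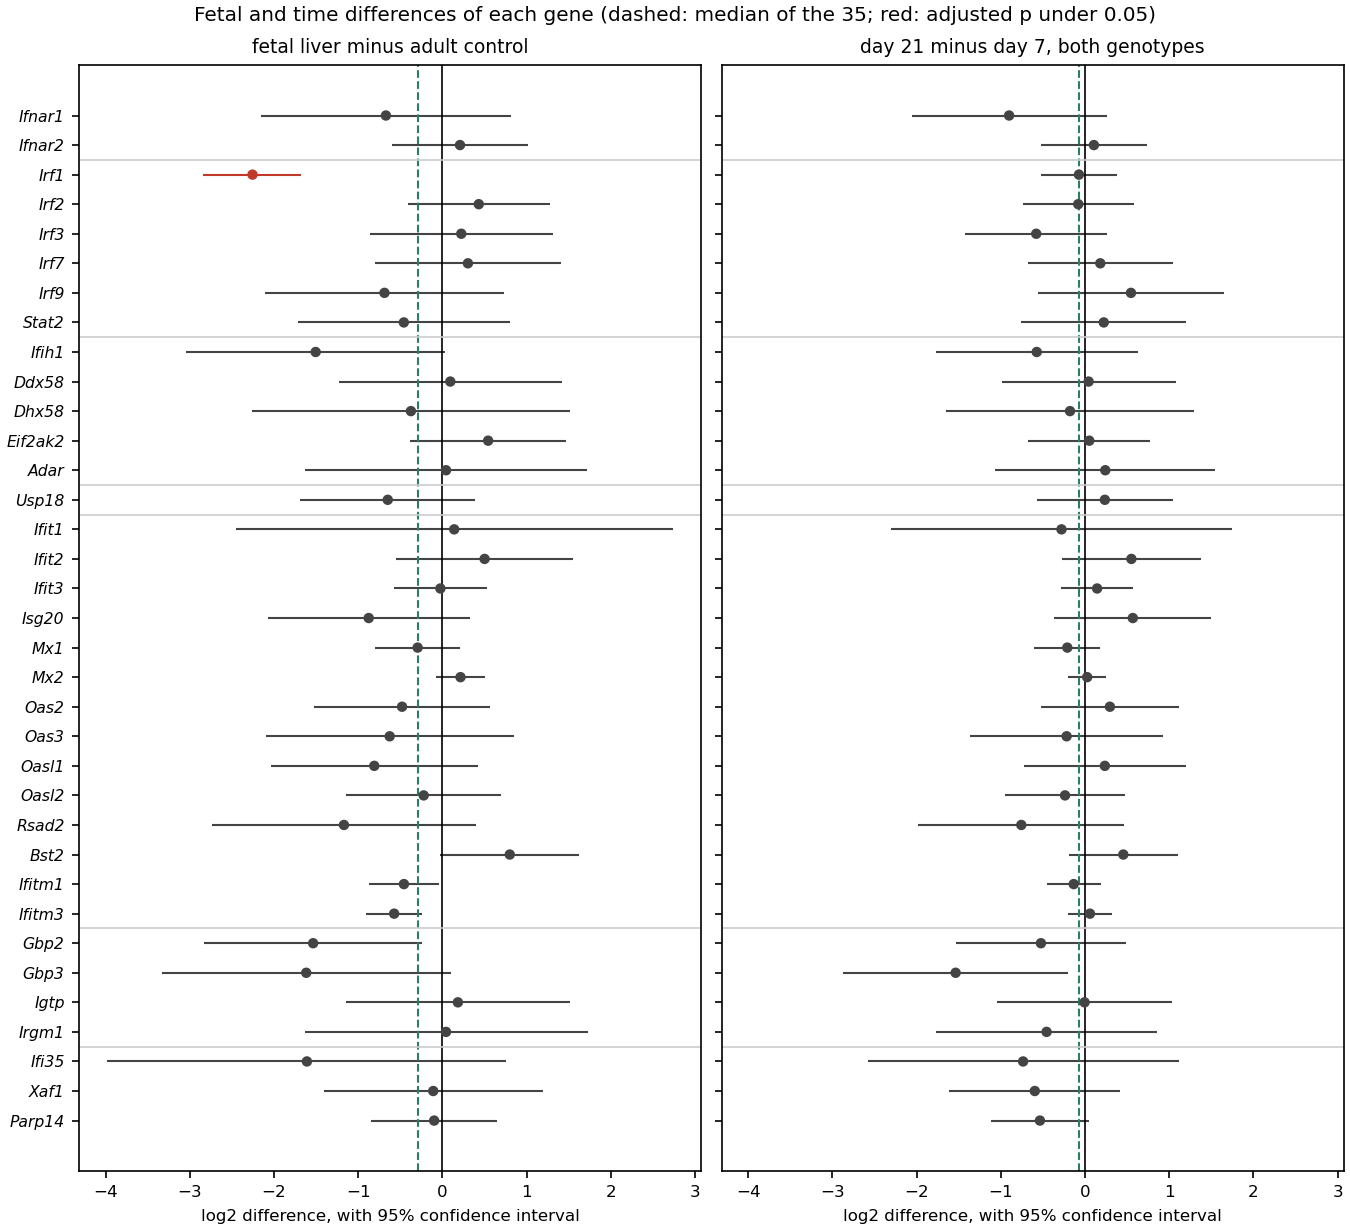
Log2 differences of the 35 genes, with 95% confidence intervals, for fetal liver minus adult control and for day 21 minus day 7 over both genotypes, ordered by role, with the members' median dashed. Irf1, in red, is the single gene past the threshold, and the medians are −0.29 and −0.07.

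The KO was compared with control at day 7, when 0 of the 16784 genes passed limma's threshold (0%). Of the 35 members 21 had a higher mean in KO, against 50.1% of all genes, and their median log2 difference was 0.19 against 0.00. No member passed, none had an unadjusted p under 0.05 (6.72% of all genes did), and an unmoderated linear model also called 0. The groups of 1 member did not overlap, against 7.48% of all genes that were higher without overlap. That member was Ifih1, the gene for the double-stranded RNA sensor MDA5, with 154, 187 and 116 in control and 938, 476 and 223 in KO. Its difference was 1.63 (SE 0.84, adjusted p = 0.791). All 5 RNA sensors and double-stranded RNA binding proteins had a higher mean in KO at day 7, from 0.25 for Ddx58, the gene for RIG-I, to that of Ifih1. Dhx58, which encodes the RNA helicase LGP2, had 1.26 (SE 1.03), with overlapping groups. At day 21 the mean was higher in KO for 3 of these 5, with a median of 0.07: Dhx58 had 1.55 (SE 0.89, adjusted p = 0.606), Ddx58 0.95 and Eif2ak2, the gene for the kinase PKR, 0.07, while the RNA-editing enzyme gene Adar had −0.05 and Ifih1 −0.73 (SE 0.73). A dimmer probe set of Ddx58 gave 1.97 at day 7 (SE 0.35, adjusted p = 0.183), whereas a further one gave 0.18.

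In KO against control at day 21 no member passed the threshold. Of the 35 members 26 had a higher mean in KO (50.3% of all genes did), and the median log2 difference was 0.34. With each array centred on its own median the count was 22 of 35 and the median 0.18, since centring moved every gene down by 0.17. The median of all genes moved with it, from 0.00 to −0.16, and under quantile normalization the count was 25 of 35. limma called 0 members and 3 of all genes (0.0179%), and the unmoderated model called 0 members. At an unadjusted p under 0.05 there were 5 members, all higher, against 6.12% of all genes. The groups of 4 members did not overlap, all higher in KO, against 3.14% of all genes: Ifnar2, Oas2, Irf2 and Stat2. Over both days together 26 of 35 members had a higher mean in KO (50.9% of all genes), with a median of 0.30, and limma called 0 members (0.0715% of all genes). Without KO replicate 4 at day 21 that median was 0.11. Here 4 members had an unadjusted p under 0.05, all higher, against 7.01% of all genes: Usp18, Oasl1, Xaf1 and Oas2. A higher mean in KO both at day 7 and at day 21 was seen for 16 of the 35 members, against 30.1% of all genes. For 4 members the mean was lower in KO on both days, against 27.2% of all genes.

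Usp18, which encodes the protease that removes ISG15 and restrains signalling at the interferon receptor, had the smallest p of the members at day 21. It was at the floor on 3 control arrays at day 21 and at 62.2 on the fourth, while KO arrays stood at 58, 107, 100 and 166. At day 7 it was at 16, 43.9 and 31.3 in control and at 82.2, 30.7 and 78.6 in KO, and all 3 fetal arrays were at the floor. The groups overlapped at both days, by 1 control array at day 21. The log2 difference was 2.16 (SE 0.49, 95% confidence interval 1.10 to 3.23, limma adjusted p = 0.146) at day 21. The corresponding value was 1.06 for day 7 (SE 0.57, adjusted p = 0.81), and both days together gave 1.61 (SE 0.38, adjusted p = 0.148). These sizes depend on the floor, since 7 of the 17 arrays give only an upper bound. Without control replicate 4 at day 21 the difference was 2.65 and past the threshold (adjusted p = 0.0481), the one setting in which any member was called at day 21.

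The receptor chains were read from separate probe sets. At day 21 Ifnar2 had 769, 1066, 847 and 379 in control and 1670, 1070, 1519 and 1830 in KO, so that the lowest KO array lay just above the highest control array. Its difference was 1.06 (SE 0.38, limma adjusted p = 0.366), and its dimmer probe sets gave 0.67 and 0.68. At day 7 it had 713, 1373 and 959 in control and 504, 1115 and 1494 in KO, which overlap, and fetal liver had 1041, 662 and 1315. Ifnar1 stood at 156, 71.5, 568 and 108 in control and at 129, 333, 158 and 133 in KO at day 21, with a difference of 0.10 (SE 0.70). Its arrays at day 7 ran from 118 to 1065 in control and from 196 to 339 in KO, and fetal liver had 79.9, 231 and 216.

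Among the transcription factors, Stat2 and Irf9, partners in ISGF3, had higher means in KO at day 21 without passing the test. Stat2 had 104, 89.3, 87.6 and 132 in control and 176, 132, 331 and 368 in KO, the nearest arrays of the groups both rounding to 132, with a difference of 1.18 (SE 0.60, limma adjusted p = 0.539), but its second probe set gave −0.09. At day 7 its 3 control arrays were 509, 73.4 and 76.4 and its KO arrays 64.8, 226 and 124, and fetal liver had 63.8, 153 and 68.6. Irf9 spread from 30.2 to 345 in control and from 142 to 566 in KO at day 21, a difference of 1.33 (SE 0.67, adjusted p = 0.54), and the groups overlapped. At day 7 it ran from 87.2 to 158 in control and from 96.7 to 250 in KO, and it was 153, 46.1 and 62.6 in fetal liver. Irf2, a repressor that competes with IRF1, had 127, 440, 320 and 444 in control and 478, 694, 592 and 481 in KO at day 21, which did not overlap, with a difference of 0.89 (SE 0.40, adjusted p = 0.484). At day 7 it had 607, 447 and 508 in control and 408, 252 and 450 in KO, which overlap, with a lower mean in KO.

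Irf7 and Irf3, which drive interferon genes themselves, varied within groups. Irf7 had 67.9, 255, 52 and 138 in control and 188, 185, 105 and 240 in KO at day 21, and 114, 83.1 and 140 against 291, 58.4 and 126 at day 7. Fetal liver had 107, 123 and 178, and all 5 groups overlapped. Irf3 had 100, 375, 785 and 460 in control and 468, 223, 623 and 406 in KO at day 21, and 759, 770 and 563 against 304, 691 and 420 at day 7. Its other probe sets gave positive differences at day 7, where the one used gave −0.63, so its direction there depends on the probe set.

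**Figure D3:**
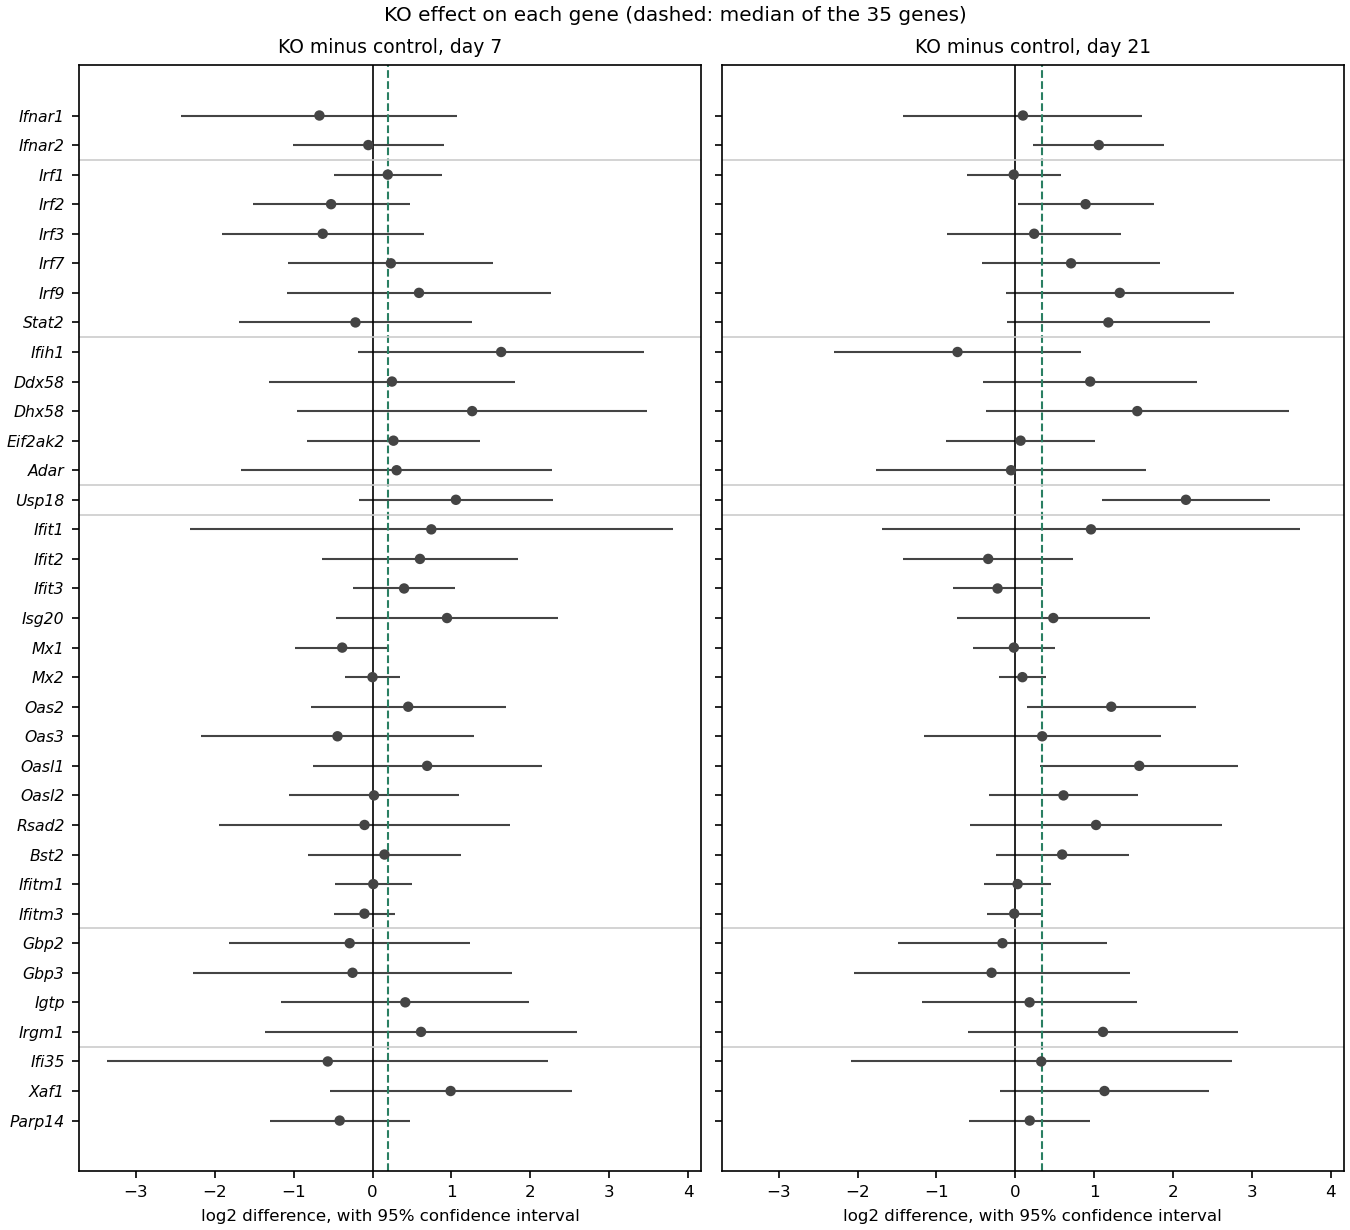
Log2 differences between KO and control at day 7 and at day 21 for the 35 genes, ordered by role, with 95% confidence intervals and the median of the genes dashed. The intervals of all genes but Usp18, Oasl1, Ifnar2, Oas2 and Irf2 at day 21 include 0, and no gene passes the adjusted threshold.

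The antiviral effectors were 14 genes, of which 10 had a higher mean in KO at day 21. Oasl1, an oligoadenylate synthetase-like protein, had 22.6, 31.6, 21.9 and 80.6 in control and 83.9, 39.7, 200 and 147 in KO, a difference of 1.57 (SE 0.58, limma adjusted p = 0.377). Oas2, which makes the oligoadenylates that activate RNase L, had 78.6, 175, 82.3 and 158 in control and 267, 201, 193 and 508 in KO, which did not overlap, with a difference of 1.22 (SE 0.50, adjusted p = 0.436). Ifit1, which binds viral RNA, spread by more within groups than between them: 404, 275, 72.8 and 25.6 in control and 135, 148, 226 and 659 in KO at day 21, and 24.3, 467 and 340 against 834, 102 and 214 at day 7. In fetal liver it ran from 24.1 through 215 to 667. Isg20, an exonuclease, had 114, 468 and 576 in control and 1482, 379 and 388 in KO at day 7 and overlapped there. Xaf1, a pro-apoptotic gene, overlapped at both days, with 155, 485, 569 and 323 in control and 680, 944, 423 and 1175 in KO at day 21, and 278, 670 and 866 against 1874, 968 and 699 at day 7. Over both days its difference was 1.06 (SE 0.47, adjusted p = 0.403), and 0.59 with the mean of its 2 probe sets. Mx1 ran from 21.5 to 55.5 over all arrays and was lower in KO at day 7, by a difference of −0.39 (SE 0.28, limma adjusted p = 0.881). Mx2 lay at the floor on 12 of 17 arrays. Both Mx1 and Mx2 are annotated as transcribed pseudogenes in the C57BL/6J reference. Ifit2, Ifit3, Ifitm1 and Ifitm3 had KO differences between −0.34 and 0.03 at day 21.

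Markers of cell types also differed between KO and control. At day 7 the sum of the 6 HSC genes was 4572 to 5585 in KO and 7119 to 7856 in control, without overlap. Hlf (1250 to 1596 and 2516 to 2935) and Mecom (807 to 945 and 994 to 1941) did not overlap. Kit, Slamf1, Procr and Meis1 did. The sum of the 4 T or NK cell genes was 264 to 1302 and 102 to 318, and that of the 3 erythroid genes was 589 to 5230 and 212 to 1276. Of the erythroid genes, Alas2 reached 4799 in KO and 168 in control. Klf1 was 221 to 724 and 29 to 70.2, and Epor 209 to 329 and 143 to 1079. At day 21 the T or NK cell sum was 411 to 915 in KO and 140 to 278 in control, mostly from Nkg7 at 343 to 831 and 84.8 to 222, while Cd3e stayed between 16 and 19.7. The neutrophil sum was 183 to 403 in KO and 273 to 3863 in control, the HSC sum was 3547 to 6066 and 5377 to 7578, and the erythroid sum was 742 to 3027 and 205 to 1671. The macrophage sum was 1169 to 1843 in KO and 1574 to 1992 in control, with Adgre1 at the floor on all adult arrays. Their part in the KO differences of either day was not tested.

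Array by array, the members stood highest on KO replicate 4 at day 21. Its median member level was 8.94 on the log2 scale, where the other 3 arrays of the group had 7.52 to 7.65. On it 31 of 35 members lay above their own mean over the 17 arrays, compared with 47.6% of all genes. It held the highest value of all 17 arrays for 9 members (25.7%, against 4.96% of all genes), among them Usp18, Oas2, Oasl2, Rsad2, Irf9 and Ifnar2. The next was KO replicate 1 at day 7, which held the highest value for 6 members. Without KO replicate 4 the members' median difference at day 21 was 0.24. The macrophage sum of that array was 1169, the lowest of the adult arrays, and its ratio of 3′ to 5′ control signal was 0.30 on the log2 scale, within the range of the other KO arrays. Its sum of HSC genes, 3547, was the lowest of the 17 arrays. Its plasmacytoid dendritic cell sum, 2389, was the highest of the KO arrays, the others having 1609 to 1926. That sum includes Bst2, itself a member and at 779 on this array, so it is not independent of the members' level. Control replicate 3 at day 21 had a higher sum, 4580. The part of these cells was not tested.

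**Figure D4:**
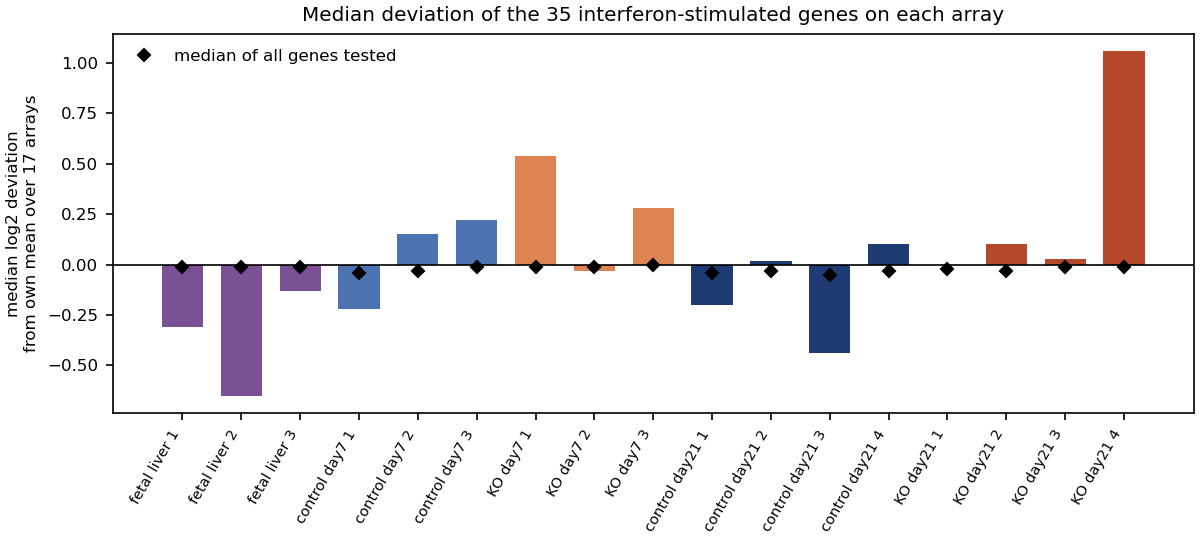
Median log2 deviation of the 35 genes from their own means on each of the 17 arrays, with the median of all genes as diamonds. KO replicate 4 at day 21 stands at 1.06, the next array at 0.54, and the diamonds lie between −0.05 and 0.00.

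The spread between arrays of a group was larger for the members than for genes at large, a comparison not matched for level. Median levels per array were 7.10 to 8.94 for the members and 6.08 to 6.56 for all genes on the log2 scale. Genes at the floor show little spread. The median SD of a member on the log2 scale was 0.85 in control at day 21 (0.46 for all genes), 0.64 in KO at day 21 (0.35), 0.69 in control at day 7 (0.36), 0.57 in KO at day 7 (0.30) and 0.64 in fetal liver (0.38). Ifit1, Dhx58, Gbp3 and Ifi35 were the most variable members of a group, and Ifitm1 had the smallest SD of any member in KO at day 21, 0.11.

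**Figure D5:**
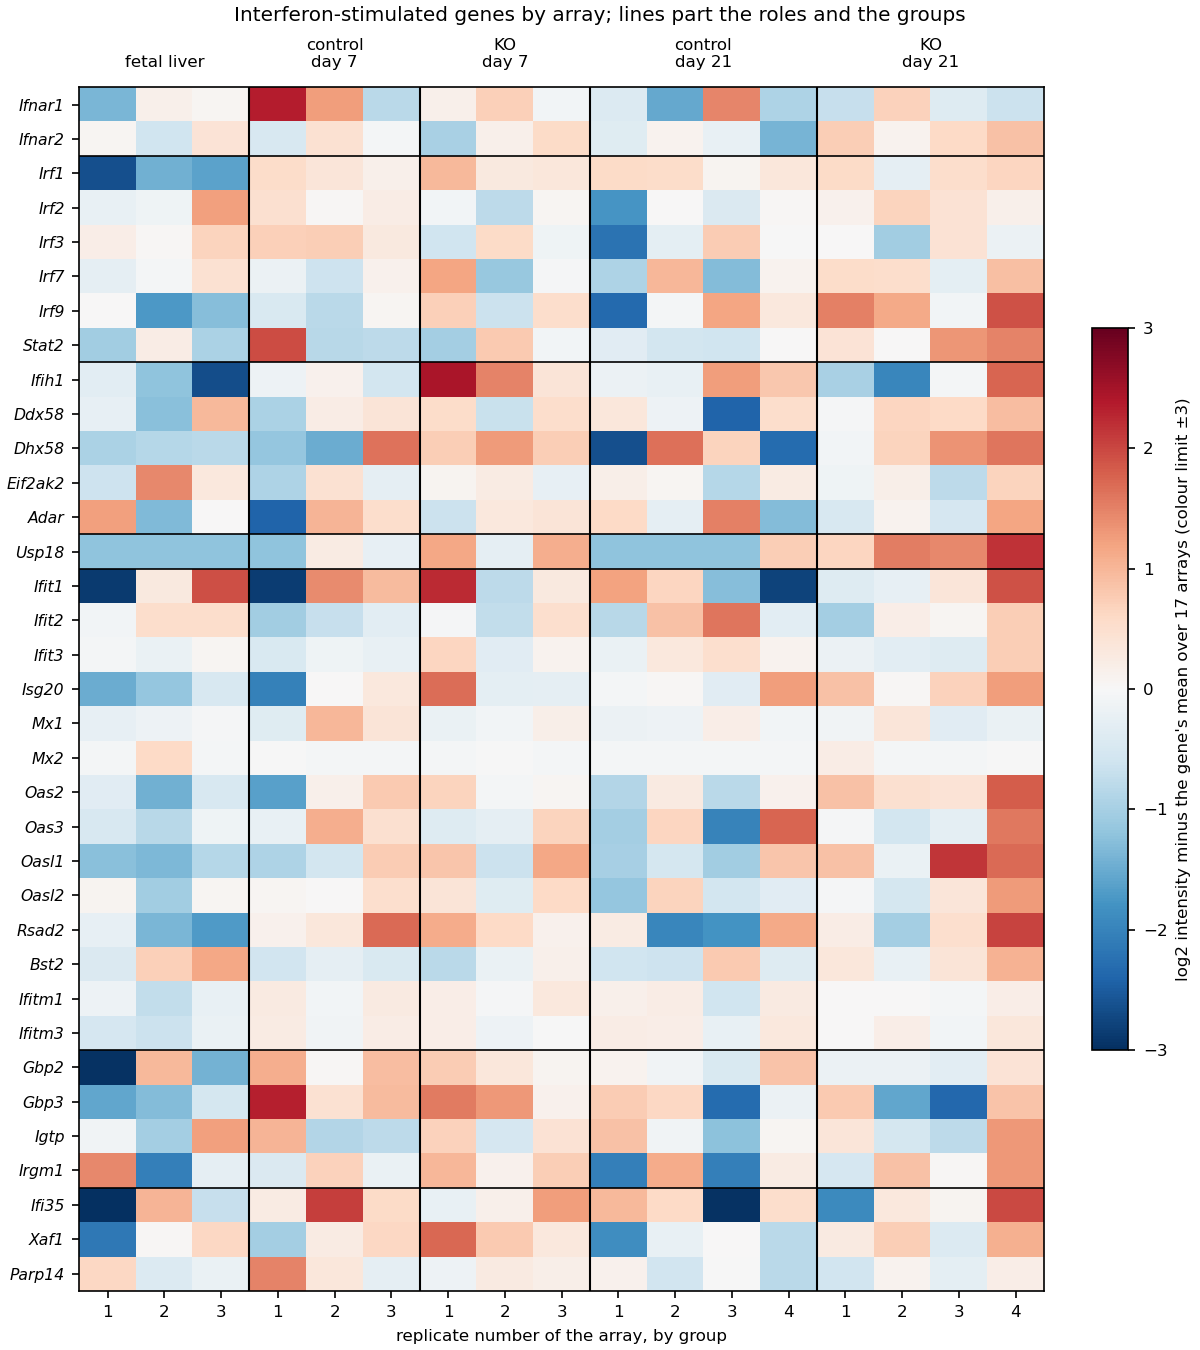
Log2 intensity of the 35 genes on the 17 arrays, as deviation from each gene's mean, with lines between roles and groups. Red fills the column of KO replicate 4 at day 21, where 31 of 35 genes lie above their own mean, and blue marks Irf1 on the 3 fetal arrays.

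Time after pIpC was compared within each genotype. In control 11 of 35 members had a higher mean at day 21 than at day 7 (48.2% of all genes), the median difference was −0.32 (0.06 with the 3′ to 5′ ratio as a covariate) and 0 members passed limma's threshold, as against 0.0298% of all genes. The 1 member with an unadjusted p under 0.05 (4.77% of all genes were lower at that level) was Parp14, a mono-ADP-ribosyltransferase, with 594, 268 and 177 at day 7 and 231, 142, 211 and 121 at day 21, a difference of −0.84 (SE 0.39, adjusted p = 0.618). With 1 array left out that difference ran from −1.23 to −0.35, the latter without control replicate 1 at day 7. Irf2 was lower at day 21 without overlap, against 3.38% of all genes, with a difference of −0.79. Ifit2 had 72.8, 92 and 119 at day 7 and 83.5, 276, 453 and 120 at day 21, a difference of 1.02 (SE 0.54). With the ratio of 3′ to 5′ signal as a covariate the members' median was 0.06. Centring left 15 of 35 higher, with the median of all genes then at 0.15, and quantile normalization left 13.

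In KO 17 of 35 members had a higher mean at day 21 than at day 7 (47.6% of all genes), and the median was −0.03. limma called 0 members (0.0179% of all genes), and 1 had an unadjusted p under 0.05 (2.4% of all genes, lower), Ifih1, with 938, 476 and 223 at day 7 and 86.4, 43.6, 165 and 571 at day 21, a difference of −1.76 (SE 0.79). Irf2 was higher without overlap (3.15% of all genes were), by 0.63 (SE 0.43), and Bst2 had a difference of 0.68, with 214, 326 and 417 at day 7 and 475, 323, 487 and 779 at day 21. Over both genotypes 16 of 35 members had a higher mean at day 21 (48.2% of all genes), limma called 0 members (0.0179%) and 1 was lower at an unadjusted p under 0.05 (4.22%). This was Gbp3, a guanylate-binding GTPase, with −1.54 (SE 0.62, adjusted p = 0.648) and 16.9 to 142 in control and 16.2 to 151 in KO at day 21 and 114 to 417 and 91 to 244 at day 7. The KO difference at day 21 minus that at day 7 was above 0 for 26 of 35 members (49.8% of all genes), with a median of 0.44. That median was 0.13 without control replicate 3 at day 21 and 0.09 with the 3′ to 5′ ratio as a covariate. Of the members 0 passed limma's test of the difference (0% of all genes) and 1 had an unadjusted p under 0.05 (2.63%, higher), Irf2 with 1.42 (SE 0.61). Ifih1 had −2.36 (SE 1.12, adjusted p = 1), and Ifit3, which works in a complex with IFIT1 in human cells, had −0.62 (SE 0.40), with 65.1 to 82.2 in control and 70.5 to 141 in KO at day 7 and 77.9 to 128 and 68.6 to 149 at day 21.

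The other genes of the pathway were read from a list of 48, of which 42 were above the floor. In fetal liver against adult control 1 rose and 4 fell, against 1.88% and 1.77% of all genes. At an unadjusted p under 0.05 there were 4 higher and 11 lower, against 10% and 6.77% of all genes. Socs3, an inhibitor of cytokine receptor signalling, had 23.1, 16 and 200 in fetal liver and 774 to 2242 in adult control, a difference of −5.25 (SE 0.60, limma adjusted p = 0.000196), with 1 fetal array at the floor. Ly6e, an interferon-inducible surface protein, fell by 1.46 (SE 0.25, adjusted p = 0.0045), with 1120 to 2287 in fetal liver and 2855 to 6485 in adult control. Irf8, a transcription factor of myeloid cells, rose by 2.04 (SE 0.37, adjusted p = 0.00726), with 333, 287 and 393 in fetal liver and 56.9 to 164 in adult control, and Stat3 had −1.22 (SE 0.27, adjusted p = 0.0214). Nlrc5, which drives MHC class I genes and was named after its value was seen, had −2.75 (SE 0.64, adjusted p = 0.0301). Both Irf8 and Bst2 are also markers of plasmacytoid dendritic cells in the marker list, whose Siglech stood at 75.1 to 87.2 in fetal liver and 66.1 to 149 in adults.

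In KO against control none of the 42 passed at either day. At day 7 limma called 0, with 26 higher (50.1% of all genes), a median of 0.14 and 1 at an unadjusted p under 0.05 (6.72%), Cgas, the gene for a DNA sensor, at 1.12 (SE 0.48). At day 21 limma called 0, with 29 higher (50.3% of all genes) and a median of 0.30. Here 3 were higher at an unadjusted p under 0.05 (6.12%), Socs1, Dtx3l and Parp9, and 1 was lower (3.95%), Psmb9. Socs1, the inhibitor of JAK kinases, had 42.4, 43.7, 45.4 and 36.4 in control and 56.1, 61.2, 52.9 and 53.9 in KO, which did not overlap, with a difference of 0.42 (SE 0.14, adjusted p = 0.332). Parp9 and Dtx3l, partners in a ubiquitin ligase complex, had 1.17 and 0.89, and the immunoproteasome gene Psmb9 had −0.62. For day 21 against day 7 over both genotypes limma called 0 of the 42, with 15 higher (48.2% of all genes). At an unadjusted p under 0.05, 1 was higher (3.09%) and 3 were lower (4.22%), and Parp9 had the smallest p at −1.33 (SE 0.38, adjusted p = 0.503).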

How the data were processed

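For each of 45101 probe sets the authors deposited an intensity on every one of the 17 arrays, on a linear scale, and per the submitters' processing notes RMA was used, with no version or settings given. How arrays were scaled is unknown, since the array medians differ. log2 of the deposited intensity was taken with no pseudocount, although the test had been planned for values already on a log2 scale, and a gene at the floor of 16 has only an upper bound. Names of probe sets came from the platform's annotation (34958 with 1 gene, 932 with several, 9160 unnamed other than controls), of which 34741 matched RefSeq GRCm38.p6. The probe set with the highest mean stood for each of 18193 genes, and 16784 above the floor on at least 1 array were tested.

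limma 3.58.1 (under R 4.3.3) estimated a mean for every group in a single fit over the 17 arrays, using lmFit, then eBayes, with 12 residual and 1.5 prior degrees of freedom. The fit was tested on simulated data. It recovered 7.16% of 2-fold and 35.2% of 4-fold changes for KO against control at day 7. At day 21 the shares were 14% and 47.8%, and for fetal liver against adult control 13.7% and 52.2%. A gene that did not pass the threshold can therefore still differ by such amounts. p-values were adjusted over all genes by Benjamini-Hochberg, and precision is limited by how many arrays there are. Any member could be named. Values on every array were planned for members called in any comparison and the 4 with the smallest p in each. The same was planned for Ifnar1, Ifnar2, Irf3, Irf7, Irf9, Stat2, Ifit1, Isg15, Usp18 and Mx1. Some of these, such as Irf9, Gbp3 and Mx1, are given by range, and Isg15 was not measured. Other members are given by range, count or difference. Other genes of the pathway were limited to 4 per comparison. Groups came from the sample titles, whose genotype field conflicts with them. The members and lists were chosen with earlier results of these data known. Alternatives covered scaling, filters, probe sets, pseudocount, moderation, covariates, array weights and leaving out each array. Replicate numbers were not used to pair the samples in the main fit. Over 31 pairs of arrays with the same number r ran from −0.04 to 0.08. Between control and KO it ran from 0.029 to 0.078 at day 7 and from −0.025 to 0.021 at day 21. Control and KO arrays with different numbers had −0.086 to 0.032 at day 7. Whether the numbers mark a pairing cannot be settled from values this small.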

Additional observations from a re-analysis of the deposited data

Results flagged for a closer look

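In the groups of 4 arrays, 6 members had a single array far from the other 3, judged by its gap to the nearest one as a share of the group's whole range. Chance gives about 1 such group in 20, and 70 groups were looked at. In control at day 21, Usp18 was at 62.2 on replicate 4 with the other 3 at the floor (share 1). Replicate 3 of the same group stood low for Ifi35 at 33.4 (share 0.887), Eif2ak2 at 363 (share 0.837) and Ifitm1 at 3309 (share 0.873), and high for Bst2 at 643 (share 0.835). That array also had the lowest median intensity, 39.4, the highest percentage of probe sets at the floor, 25.2%, and the lowest 3′ to 5′ ratio, −0.40 on the log2 scale; their part was not tested. In KO at day 21, Irf1 was at 650 on replicate 2 and at 1146 to 1225 on the others (share 0.895).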

How the results depend on the processing

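Irf1 was called lower in fetal liver under all 10 fits that left out 1 array and under all 17 other settings, with log2 differences between −2.49 and −1.89. The number of members called in that comparison was 2 in place of 1 under 7 settings: no filter at the floor, the mean of all probe sets, arrays centred on the median, log2 of the intensity plus 16, eBayes with a trend and robust prior, the ratio of 3′ to 5′ signal as a covariate, and, chosen after seeing the data, without the control array farthest from its group at each day. The second gene was Ifitm3 (adjusted p between 0.0341 and 0.0481 there), except under the 3′ to 5′ covariate, where it was Gbp2 (−2.05, adjusted p = 0.0443). Leaving out 1 array gave 1 to 3 members: without fetal replicate 2 Gbp2 joined (−2.60, adjusted p = 0.00576; −0.62 and 0.669 without fetal replicate 1), and without control replicate 3 at day 21 Ifitm3 and Ifitm1 did (adjusted p = 0.0237 and 0.0488). For KO at day 21 the range was 0 to 1, the 1 being Usp18 without control replicate 4 (adjusted p = 0.0481); otherwise its adjusted p ran from 0.0969, under the replicate block, to 0.445, under the floor share as a covariate. The replicate block changed no call of a member. The cause of these changes was not tested. The members' median at day 21 ran from 0.24 (without KO replicate 4) to 0.59 (without KO replicate 2) when 1 array was left out, and from 0.18 to 0.48 under other settings. At day 7 it reached −0.01 with the floor share as a covariate and 0.04 without KO replicate 1. Over both days it fell from 0.30 to 0.11 without KO replicate 4 at day 21 and to 0.12 with the floor share as a covariate, and for the difference between the days from 0.44 to 0.13 without control replicate 3 at day 21 and to 0.09 with the 3′ to 5′ covariate. For control at day 21 against day 7 it ran from −0.57 to −0.08, without control replicates 1 and 3 at day 7, and was 0.06 with the 3′ to 5′ covariate. For KO over time it ran from −0.27 without replicate 4 at day 21 to 0.14 without replicate 1 at day 21, and in the fetal comparison it ran from −0.48 to −0.14 with 1 array left out. Centring left 20 of 35 members higher in KO over both days in place of 26, with the median of all genes then at −0.13. Quantile normalization left 25. Of the other pathway genes in fetal liver, Socs3 and Irf8 kept their calls under all settings, Ly6e lost it with only the arrays compared (adjusted p = 0.0585), and Stat3 and Nlrc5 lost it without fetal replicate 2 (adjusted p = 0.108 and 0.156), among others. Counts of all genes called moved more: 3 at day 21 became 1 to 43 with 1 array left out and 0 to 19 otherwise, 12 over both days became 0 to 11 and 0 to 44, and 613 in the fetal comparison became 414 to 690 and 234 to 1093. Values near the floor, such as those of Usp18, Mx2 and Irgm1, limit what the arrays can show.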
